A study of Homo sapiens with 24 samples.

Results

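A set of 10 genes around E-cadherin was followed in CHD1-depleted breast epithelial cells. They were CDH1, which encodes E-cadherin, the splicing regulators ESRP1 and ESRP2, the epithelial transcription factors GRHL2 and OVOL1, the transcriptional repressors ZEB1, ZEB2, SNAI1 and SNAI2, and MAL2, which encodes a membrane protein of apical transport. These 10 of the 59251 genes in the count table were picked by symbol, with the question whether the lower CDH1 transcript in CHD1-depleted PE cells goes with a higher repressor transcript. Because measured changes in PE cells led to the choice, the comparisons of a CHD1 hairpin with the GFP hairpin in PE are given below as a description, without p-values for these genes.

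E-cadherin joins epithelial cells at adherens junctions. In the epithelial-mesenchymal transition (EMT), ZEB1, ZEB2, SNAI1 and SNAI2 bind E-box motifs near CDH1 and other epithelial genes and recruit corepressors, while GRHL2 and OVOL factors restrain ZEB1 and favour the epithelial state. The ESRP proteins direct epithelial splice choices, and microRNAs of the miR-200 family and miR-205 bind the ZEB1 and ZEB2 transcripts and lower their output, with ZEB proteins repressing the miR-200 genes in return.

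Poly(A) RNA was sequenced from MCF10A, an established human breast epithelial line that forms no tumours, in the derivative PM, labelled MYC-transformed, and the derivative PE, labelled non-transformed. Each line carried hairpin A or hairpin B against CHD1, a chromatin remodeller that binds methylated histone H3, or a control hairpin against GFP. All 6 groups had doxycycline, 50 ng/ml, for 72 h and the same medium with horse serum, EGF, hydrocortisone, cholera toxin and insulin, and each held 4 libraries called biological replicates. The sources do not say how the cultures were separated, whether a line is a single clone, or what drives the hairpins, so a p-value here speaks of how much these libraries vary, which may be technical.

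Total counts ran from 4.14 M in PE with the GFP hairpin, replicate 1, to 93.3 M. CHD1 transcript averaged 31 ± 2.76 CPM (reads scaled to library size, after TMM) with hairpin A, 29.5 ± 5.4 with hairpin B and 90 ± 5.18 with the GFP hairpin in PM, and 29.2 ± 1.2, 28.1 ± 3.07 and 78.8 ± 5.53 CPM in PE (SD, n = 4 each). Replicate 3 of hairpin B in PM had a count for 33137 genes, the most of any library, and replicate 4 of hairpin A in PM had the fewest genes of the PM libraries, 19514, and the highest mitochondrial share, 7.05%. The cells carried most of the listed breast epithelial markers. Of 10, 9 passed the filter on low counts, and none was at 0 in all 24 libraries. Their summed level was at least 1920 CPM in every library. Sums were at most 66.5 CPM for 8 fibroblast, 15.2 CPM for 5 endothelial and 85.5 CPM for 6 immune markers. KRT19 did not pass the filter and averaged at most 0.101 CPM in any group. TP63 passed it but averaged at most 0.65 CPM. The epithelial sum was lower with CHD1 hairpins, at 1920 to 2470 CPM against 2990 to 3320 CPM in PM, and at 1980 to 3200 CPM against 3660 to 5110 CPM in PE. Much of that sum was KRT5 and LAMB3. KRT5 stood at 961, 1320 and 1210 CPM with hairpin A, hairpin B and the GFP hairpin in PM. In PE KRT5 stood at 1320, 830 and 1290 CPM, and it passed with both hairpins in neither line. LAMB3, a laminin subunit gene, was lower with both, at 229, 335 and 1200 CPM in PM and 856, 716 and 2690 CPM in PE. Other markers went in both directions. KRT17 was lower with both hairpins in both lines (log2 −2.07 and −2.63 in PM, −2.39 and −5.03 in PE). EPCAM was lower with both in PE (log2 −1.47 and −1.02) and KRT14 in PM (log2 −2.03 and −2.28). KRT8 was higher in PE and ITGA6 in PM with both hairpins, and KRT18 passed with both in neither line. MYC averaged 564 CPM with hairpin A, 392 CPM with hairpin B and 518 CPM with the GFP hairpin in PM, and 258, 275 and 275 CPM in PE. The part of the epithelial markers in the results was not tested, and in bulk RNA fewer cells of a kind and less RNA per cell cannot be told apart.

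The mature microRNAs that connect to ZEB1 and ZEB2 are shown first because host transcripts of some of them were examined later. They come from RefSeq (GRCh38.p14), and capitals mark the seed, bases 2 to 8 from the 5′ end. The first 3 share one seed, the next pair shares another, and miR-205 has a seed of its own.
hsa-miR-200b-3p: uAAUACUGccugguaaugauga
hsa-miR-200c-3p: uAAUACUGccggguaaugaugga
hsa-miR-429: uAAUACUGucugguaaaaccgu
hsa-miR-200a-3p: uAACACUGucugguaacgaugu
hsa-miR-141-3p: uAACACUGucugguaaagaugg
hsa-miR-205-5p: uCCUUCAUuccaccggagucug

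Promoters are shown for 3 epithelial genes on the list of ZEB and SNAI targets whose transcripts are described below. Each is the 250 bases before a RefSeq start site (GRCh38.p14), read along the gene's strand, and capitals mark the E-box letters CAGGTG on either strand (CAGGTG or CACCTG). CRB3, which encodes a polarity protein, is on the plus strand at chr19:6464021-6464270. LAD1, which encodes the anchoring filament protein ladinin, is on the minus strand at chr1:201399325-201399574. S100A14, a calcium-binding protein gene, is on the minus strand at chr1:153616326-153616575.
CRB3: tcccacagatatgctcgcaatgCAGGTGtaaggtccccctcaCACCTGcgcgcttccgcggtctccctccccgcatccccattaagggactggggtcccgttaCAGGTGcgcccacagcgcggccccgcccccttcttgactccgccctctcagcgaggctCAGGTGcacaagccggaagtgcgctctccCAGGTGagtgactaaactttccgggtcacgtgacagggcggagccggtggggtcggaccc
LAD1: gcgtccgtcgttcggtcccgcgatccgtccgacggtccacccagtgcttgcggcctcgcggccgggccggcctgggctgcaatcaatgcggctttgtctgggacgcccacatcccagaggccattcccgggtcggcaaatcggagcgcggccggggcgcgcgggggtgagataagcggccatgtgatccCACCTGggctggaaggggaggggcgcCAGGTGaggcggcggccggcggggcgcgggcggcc
S100A14: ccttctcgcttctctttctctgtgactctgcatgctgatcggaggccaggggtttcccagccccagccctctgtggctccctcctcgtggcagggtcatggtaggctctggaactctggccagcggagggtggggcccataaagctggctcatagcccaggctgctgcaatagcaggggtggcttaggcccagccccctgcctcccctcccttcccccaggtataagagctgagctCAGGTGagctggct
CRB3 held 5 matches, LAD1 2 and S100A14 1. The promoters of KRT8, on the same list, and of LSR, also described below, held none. Over windows from 250 bases before to 50 after the start, 20.6% of 35116 promoters held a match, and 24.1% of 27305 genes had such a promoter. On the list of ZEB and SNAI targets 15 of 19 genes with a promoter in the table had one, and the genes had been listed as known targets. A match is a run of letters and says nothing of binding in these cells. Of the 10 genes themselves, ZEB1 and ZEB2 had entries. ZEB1 held the motif in some of its promoters and not in others, and ZEB2 held none.

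CDH1 lies on chromosome 16 at 68737292 to 68835537 on the plus strand (GRCh38, as are all positions here), and each value counts reads over the whole gene. In PE its transcript stood far below the control with either CHD1 hairpin. The 4 libraries with hairpin A held 4.08, 1.08, 1.5 and 1.8 CPM, those with hairpin B 0.158, 0.687, 0.251 and 0.138 CPM, and those with the GFP hairpin 13.8, 11, 8.29 and 3.75 CPM. All hairpin B libraries lay below every other PE library, whereas 1 hairpin A library, replicate 1, lay above the lowest control, replicate 4. The log2 change was −1.95 (SE 0.37) with hairpin A and −5.07 (SE 0.49) with hairpin B, and the hairpin B value rests on 51 counts in 4 libraries. Across the 6 groups CDH1 ran, from high to low, from PM with hairpin B (26.8 CPM) and the GFP hairpin (26 CPM) through PM with hairpin A (18.3 CPM) to PE with the GFP hairpin (9.22 CPM), hairpin A (2.12 CPM) and hairpin B (0.309 CPM). Among neighbours in this order, the first pair in PM and the PE pair of control and hairpin A had overlapping libraries.

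ESRP1, on chromosome 8 at 94641174 to 94707466, encodes an RNA-binding protein that keeps epithelial splice forms. It took the same order in PE as CDH1. Its hairpin A libraries held 2.7, 1.79, 1.35 and 1.2 CPM, its hairpin B libraries 0.237, 0.137, 0.138 and 0.0692 CPM, and its control libraries 12.2, 8.41, 5.47 and 3.85 CPM. The 3 groups did not overlap. The log2 change was −1.93 (SE 0.25) with hairpin A and −5.62 (SE 0.35) with hairpin B, where 28 counts remained.

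MAL2, on chromosome 8 at 119208363 to 119245673, encodes a protein of transcytosis to the apical membrane. In PE it held 18.5, 13.9, 9.26 and 10.9 CPM with hairpin A, 1.63, 1.1, 0.49 and 0.705 CPM with hairpin B and 55, 60.8, 37.1 and 22.6 CPM with the GFP hairpin. The groups did not overlap, and the log2 changes were −1.68 (SE 0.27) and −5.60 (SE 0.36) for hairpins A and B. In the PE controls replicate 4 was the lowest library for CDH1, ESRP1 and MAL2 alike.

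ESRP2, on chromosome 16 at 68229033 to 68236127, encodes the paralogue of ESRP1 and differed far less from its control in PE. Its libraries held 33.9, 40.2, 31.1 and 28.8 CPM with hairpin A, 35.4, 34.5, 27 and 27.2 CPM with hairpin B and 53.6, 56.6, 48.5 and 46.1 CPM with the GFP hairpin. Both CHD1 groups lay below the control and overlapped each other, with log2 changes of −0.60 (SE 0.10) and −0.72 (SE 0.10). Per kilobase of exon, ESRP2 averaged 5.58 CPM and ESRP1 0.0298 CPM in PE with hairpin B, against 9.2 and 1.53 CPM in PE with the GFP hairpin, so ESRP2 supplied the higher level per length in both. ESRP2 lies 501 kb before CDH1 on the same chromosome and overlaps NFATC3, whose level ran from 20.5 to 61.1 CPM, and the strand setting of the counting is not given, so reads where these genes overlap are uncertain. The same holds for the antisense genes of ZEB1 (1.11 to 3.87 CPM), ZEB2 (at most 0.188 CPM) and MAL2 (at most 0.356 CPM).

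The 4 repressors differed from the PE control by less than CDH1, ESRP1 and MAL2 did, at log2 changes of −0.58 to 0.73. ZEB1, on chromosome 10 at 31318417 to 31529804, held 21, 22.2, 25.5 and 21.4 CPM in PE with hairpin A, 14.4, 18.9, 17.3 and 21 CPM with hairpin B and 17.8, 14.1, 16.8 and 16.4 CPM with the GFP hairpin. Hairpin A libraries all lay above the controls (log2 0.48, SE 0.15), and hairpin B libraries overlapped them (log2 0.15, SE 0.15). ZEB2, on chromosome 2 at 144384081 to 144520119, was the 1 repressor above the control without overlap with both hairpins. It held 54.2, 42.3, 61.9 and 55.5 CPM with hairpin A, 48.5, 47.1, 56.7 and 69.2 CPM with hairpin B and 33.2, 34.9, 40.4 and 40.5 CPM with the GFP hairpin, with log2 changes of 0.51 (SE 0.17) and 0.56 (SE 0.17).

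SNAI1, on chromosome 20 at 49982980 to 49988886, encodes the repressor Snail. In PE its hairpin A libraries lay above all others, at 20.6, 21.7, 24.7 and 15.6 CPM, against 13.3, 9.62, 11.8 and 10.2 CPM with hairpin B and 13.8, 10.9, 13.8 and 11.5 CPM with the GFP hairpin. Its log2 change was 0.73 (SE 0.15) with hairpin A and −0.14 (SE 0.16) with hairpin B. SNAI2, on chromosome 8 at 48917598 to 48921429, encodes Slug, a repressor that basal breast cells also carry. It held 26.9, 24.1, 25.7 and 32.3 CPM with hairpin A, 30.5, 45.6, 46.4 and 52.8 CPM with hairpin B and 33.4, 32.9, 48.2 and 46.2 CPM with the GFP hairpin. Hairpin A libraries lay below the controls (log2 −0.58, SE 0.17) and hairpin B libraries overlapped them (log2 0.10, SE 0.17).

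Side by side, ZEB2 was above the PE control with both hairpins, ZEB1 and SNAI1 lay above it without overlap with hairpin A, and SNAI2 lay below it with hairpin A. Of the 8 genes that passed the filter on low counts, all 8 were past an adjusted p of 0.05 with hairpin A (3 higher, 5 lower), beside 20.2% of the 20820 genes tested (10.9% higher, 9.33% lower). With hairpin B 5 were past it (1 higher, 4 lower), beside 26.8% (13.6% higher, 13.2% lower). Groups did not overlap for 7 genes with hairpin A, beside 21.2% of all genes, and for 5 with hairpin B, beside 25.2%. As these comparisons led to the choice of genes, nothing is read from those counts. For 3 repressors the hairpin A call was lost when 1 library was left out: for ZEB1 without hairpin A replicate 3 or control replicate 2, for SNAI2 without control replicate 3 or 4, and for ZEB2 without hairpin A replicate 1, 3 or 4 or control replicate 1, 2 or 3. The ZEB2 call with hairpin B was lost without hairpin B replicate 4, at a log2 change of 0.43.

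**Figure D1:**
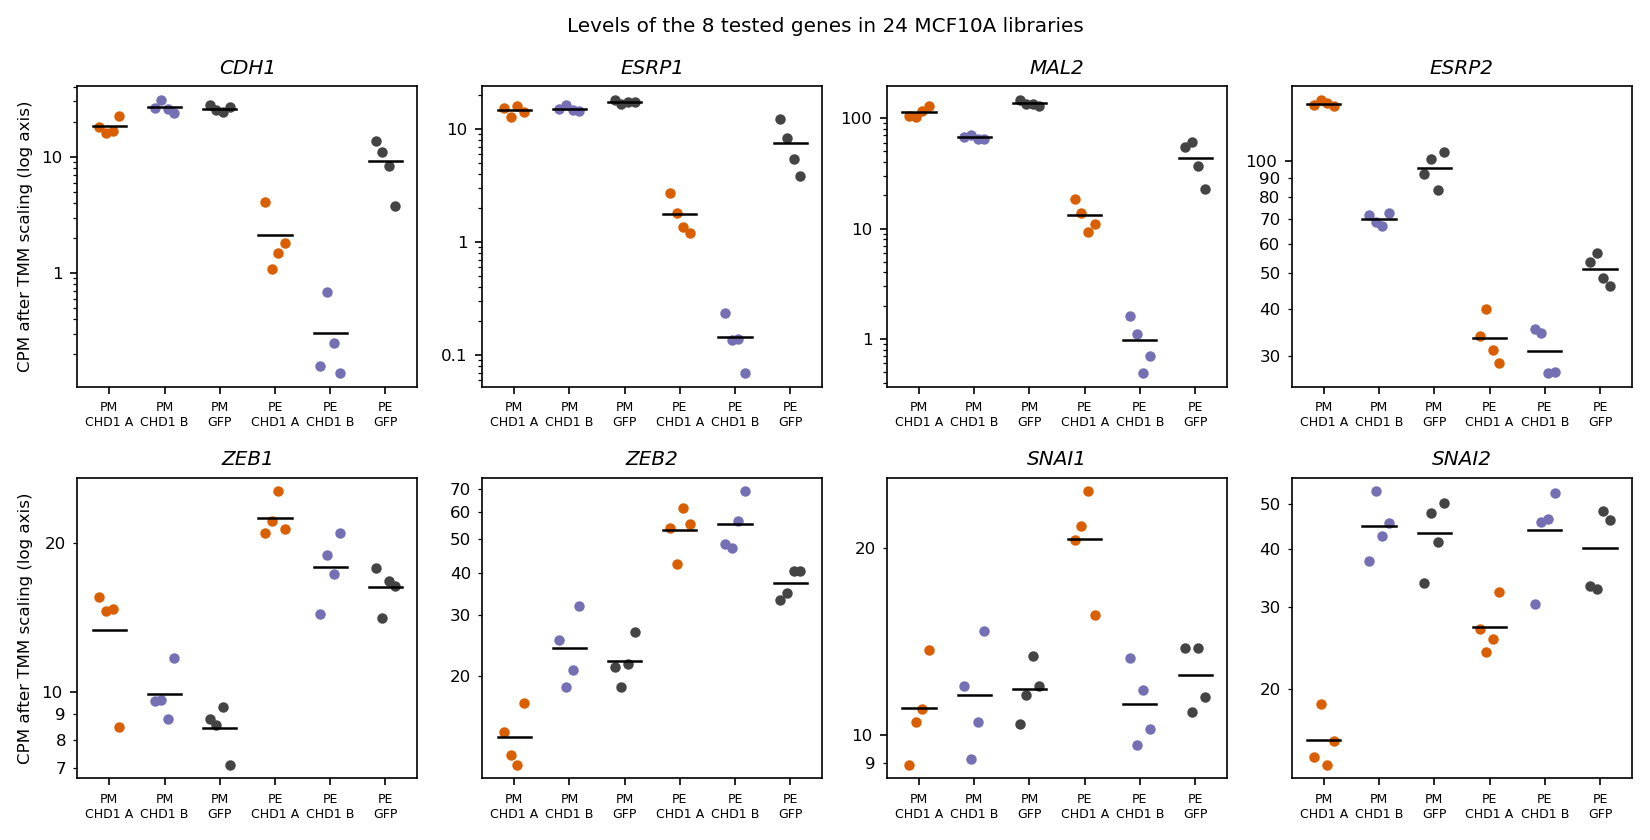
Level of each of the 8 tested genes in CPM after TMM scaling, on a log axis that differs between panels, with 1 point per library, ordered by replicate number within a group, and the group mean as a bar (n = 4). CDH1, ESRP1 and MAL2 in PE lie lowest with hairpin B, at means of 0.309, 0.145 and 0.982 CPM, then with hairpin A, then with the GFP hairpin, while the 4 repressors in PE stay between 9.62 and 69.2 CPM.

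**Figure D2:**
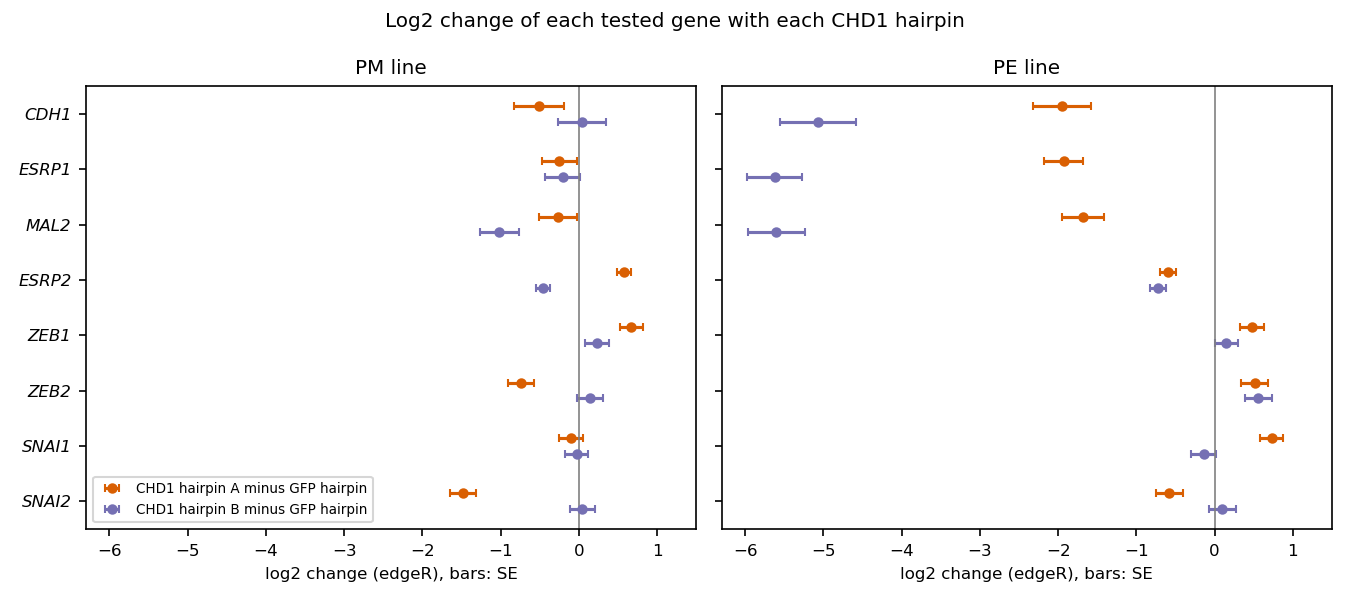
Log2 change of each gene with CHD1 hairpin A or B against the GFP hairpin, as fitted by edgeR with approximate standard errors as bars, in PM on the left and PE on the right. In PE 3 genes reach −5.07 to −5.62 with hairpin B, and in PM every change lies between −1.48 and 0.67.

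GRHL2 and OVOL1 could not serve as epithelial regulators to compare, because neither passed the filter. GRHL2, on chromosome 8 at 101492439 to 101681200, had 2, 16 and 5 counts over 4 libraries in PM with hairpin A, hairpin B and the GFP hairpin, and 5, 6 and 4 in PE. OVOL1, on chromosome 11 at 65787063 to 65797214, had 23, 3 and 7 counts in PM, 14 of the 23 in replicate 4 of hairpin A, and 1, 0 and 0 counts in PE. A count of 0 in PE allows up to 0.0142 CPM with hairpin B and 0.0214 CPM with the GFP hairpin over the group, for counting error alone. With both genes near the floor in the control groups too, no fold is given.

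The 2 CHD1 hairpins were next compared directly in PE, in a contrast that holds no GFP libraries but shares its libraries with the comparisons that led to the choice of genes. CHD1 itself did not differ between hairpins B and A in the edgeR quasi-likelihood test (log2 −0.06, SE 0.10, adjusted p = 0.769). Because the contrast is the difference of the changes that led to the choice, the values of the 8 genes are a description, without p-values. Past the threshold were 5 of them, 1 higher and 4 lower with hairpin B, beside 16.6% of all genes tested (7.48% higher, 9.09% lower), and 5 did not overlap, beside 20.6%, from which nothing is read. The log2 difference was −3.12 (SE 0.51) for CDH1, −3.70 (SE 0.36) for ESRP1 and −3.92 (SE 0.35) for MAL2, with all 4 hairpin B libraries below all hairpin A libraries for each. Of the repressors, SNAI1 stood at −0.87 (SE 0.15), SNAI2 at 0.69 (SE 0.16), ZEB1 at −0.33 (SE 0.14) and ZEB2 at 0.05 (SE 0.16). ESRP2 stood at −0.12 (SE 0.09).

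In PM the changes of CDH1, ESRP1 and MAL2 lay between −1.02 and 0.04 on the log2 scale. With hairpin A, 4 of the 8 genes tested passed, 2 higher and 2 lower, beside 27.8% of all genes (13.4% higher, 14.3% lower). With hairpin B 2 passed, both lower, beside 28.1% (13.6% higher, 14.4% lower). Groups did not overlap for 6 genes with hairpin A, beside 29.1%, and for 3 with hairpin B, beside 28.9%. No gene of the 8 passed in the same direction with both hairpins.

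CDH1 in PM held 18.1, 15.9, 16.6 and 22.4 CPM with hairpin A, 26.5, 31, 25.8 and 23.9 CPM with hairpin B and 28, 25.2, 24.1 and 26.7 CPM with the GFP hairpin. All 4 hairpin A libraries lay below the controls, and hairpin B libraries overlapped them. With hairpin A the log2 change was −0.51 (SE 0.32, 95% interval −1.17 to 0.15), with an adjusted p of 0.267 in the edgeR fit that shares 1 spread over the 6 groups. The exact two-sided permutation test gave 0.0286, the smallest p that 70 assignments allow, unadjusted and 1 of 40 such tests. It left any pairing by replicate number out. Fitted on these 2 groups alone, edgeR gave an adjusted p of 0.00102, and limma-voom on all groups gave 0.00536. Within-group SDs of log2(CPM + 0.5) for CDH1 were 0.09 to 0.21 in PM and 0.41 to 0.76 in PE, and their part in these calls was not tested. With hairpin B the log2 change was 0.04 (SE 0.31, interval −0.61 to 0.70, adjusted p = 0.952).

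ESRP1 in PM held 12.8 to 16.1 CPM with hairpin A, 14.4 to 16.3 CPM with hairpin B and 16.7 to 18.2 CPM with the GFP hairpin. The libraries with CHD1 hairpins all lay below the controls, by a log2 change of −0.25 (interval −0.70 to 0.19, adjusted p = 0.449) and −0.21 (interval −0.65 to 0.24, adjusted p = 0.56) that did not pass. MAL2 held 104, 103, 115 and 128 CPM with hairpin A, 67.7, 70.5, 64.5 and 65.4 CPM with hairpin B and 147, 135, 134 and 129 CPM with the GFP hairpin. It fell with hairpin B by 1.02 on the log2 scale (SE 0.25, adjusted p = 0.0035), and its change with hairpin A was −0.27 (SE 0.24, adjusted p = 0.47), or past the threshold in a fit of these 2 groups alone (adjusted p = 0.00482).

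ESRP2 moved in opposite directions with the 2 hairpins in PM. It held 141, 146, 143 and 140 CPM with hairpin A, 71.6, 68.7, 66.9 and 72.5 CPM with hairpin B and 92.5, 101, 83.8 and 106 CPM with the GFP hairpin, and no groups overlapped. It rose by 0.57 with hairpin A (SE 0.09, adjusted p = 8.58e-06) and fell by 0.46 with hairpin B (SE 0.09, adjusted p = 0.000213).

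Among the repressors in PM, ZEB1 rose with hairpin A to 15.6, 14.6, 14.7 and 8.5 CPM, against 8.79, 8.56, 9.33 and 7.12 CPM with the GFP hairpin (log2 0.67, SE 0.15, adjusted p = 0.000531). Of these 4 libraries 3 lay above the controls, and replicate 4 lay among them. Hairpin B libraries held 9.57, 9.61, 8.79 and 11.7 CPM (log2 0.23, interval −0.07 to 0.52, adjusted p = 0.278). With hairpin A the exact permutation test gave ZEB1 an unadjusted p of 0.114. It gave 0.0286 for ESRP2, ZEB2 and SNAI2, the other genes that passed with hairpin A. ZEB2, encoding the second ZEB repressor, went the other way with hairpin A: it fell to 13.7, 11.7, 11 and 16.7 CPM, against 21.2, 18.5, 21.7 and 26.8 CPM with the GFP hairpin (log2 −0.74, SE 0.17, adjusted p = 0.00179). With hairpin B it held 25.4, 18.6, 20.8 and 31.9 CPM (log2 0.14, adjusted p = 0.63).

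SNAI2 showed the largest change of the 8 genes in PM. It fell with hairpin A to 14.3, 18.6, 13.8 and 15.5 CPM, against 33.9, 47.8, 41.5 and 50.2 CPM with the GFP hairpin (log2 −1.48, SE 0.17, adjusted p = 4.54e-07), and held 37.7 to 53.2 CPM with hairpin B (log2 0.04, adjusted p = 0.902). SNAI1 held 8.95 to 13.7 CPM with hairpin A, 9.13 to 14.7 CPM with hairpin B and 10.4 to 13.4 CPM with the GFP hairpin, and passed with neither (log2 −0.10 and −0.03, adjusted p = 0.696 and 0.922).

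Hairpins B and A differed in PM for 5 of the 8 genes, 2 higher and 3 lower, beside 26.3% of all genes tested (12.7% higher, 13.5% lower), and 5 did not overlap, beside 26.2%. SNAI2 (log2 1.52, SE 0.17, adjusted p = 3.97e-07) and ZEB2 (log2 0.88, SE 0.17, adjusted p = 0.000404) were higher with hairpin B, and ESRP2 was lower (log2 −1.03, SE 0.09, adjusted p = 1.84e-10), in all 4 libraries each. ZEB1 (log2 −0.44, SE 0.14, adjusted p = 0.0216) and MAL2 (log2 −0.75, SE 0.24, adjusted p = 0.0289) passed narrowly, and the count was 3 to 4 when any 1 library was left out. The ZEB1 call was lost without hairpin A replicate 1, 2 or 3 or hairpin B replicate 1, 2 or 3. The MAL2 call was lost without hairpin A replicate 3 or 4 or any hairpin B replicate. The exact permutation test gave an unadjusted p of 0.143 for ZEB1 and 0.0286 for each of the other genes that passed.

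Set side by side, the change in PM minus that in PE was 1.43 (SE 0.49) for CDH1, 1.67 (SE 0.33) for ESRP1 and 1.41 (SE 0.36) for MAL2 on the log2 scale with hairpin A. With hairpin B it was 5.11 (SE 0.59), 5.42 (SE 0.42) and 4.58 (SE 0.43). For the repressors it was −1.25 to 0.19 with hairpin A and −0.42 to 0.11 with hairpin B. These differences contain the PE comparisons behind the choice of genes and carry no test.

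Without CHD1 depletion, CDH1, both ESRP genes and MAL2 were higher in PM than in PE, and ZEB1 and ZEB2 lower. In PM against PE with the GFP hairpin 6 of the 8 genes passed, 4 higher and 2 lower, beside 25.5% of all genes (14.1% higher, 11.4% lower), and the same number, 6, did not overlap, beside 24.9%. CDH1 averaged 26 ± 1.71 CPM in PM and 9.22 ± 4.28 CPM in PE (SD, n = 4 each), with a log2 difference of 1.63 (SE 0.34). ESRP1 averaged 17.4 ± 0.617 and 7.49 ± 3.69 CPM (log2 1.37, SE 0.24). MAL2 averaged 136 ± 7.76 CPM in PM and 43.9 ± 17.4 CPM in PE (log2 1.68, SE 0.26). ESRP2 was also higher in PM (log2 0.91, SE 0.10). ZEB1 averaged 8.45 ± 0.948 CPM in PM and 16.3 ± 1.57 CPM in PE (log2 −0.93, SE 0.15), and ZEB2 22.1 ± 3.44 and 37.2 ± 3.77 CPM (log2 −0.77, SE 0.17). SNAI1 (log2 −0.06, interval −0.38 to 0.25) and SNAI2 (log2 0.09, interval −0.26 to 0.43) did not pass. This comparison shares the PE control libraries with the comparisons in PE that led to the choice of genes. Its values for the 8 genes are therefore a description, without p-values, and nothing is read from its counts.

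Deviations of single libraries from their group were also compared. After each group's mean was taken off, log2(CPM + 0.5) of CDH1 correlated with that of ESRP1 at r = 0.75 and of MAL2 at r = 0.68 over the 24 libraries, against −0.19 for ZEB1, −0.13 for ZEB2, −0.07 for SNAI1 and −0.16 for SNAI2. By line, the ESRP1 value was 0.37 in PM and 0.77 in PE, the MAL2 value 0.73 and 0.68, and the ZEB1 value −0.73 and −0.06, over 12 libraries each. In PM with hairpin A, replicate 4 held the lowest ZEB1 of its group, 8.5 CPM against 14.6 to 15.6 CPM. It also held the highest CDH1 there, 22.4 CPM against 15.9 to 18.1 CPM. The part of this library in the PM value of ZEB1 was not tested. Libraries of a group share their line and hairpin, and the values are descriptions.

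**Figure D3:**
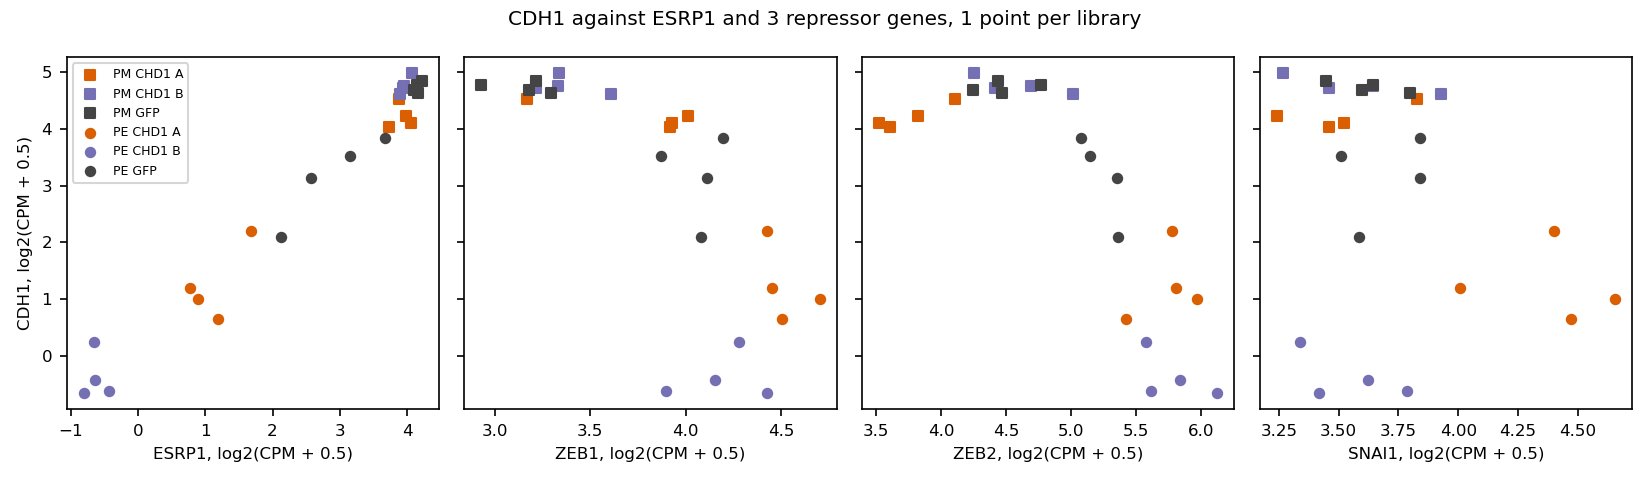
CDH1 on the vertical axis against ESRP1, ZEB1, ZEB2 and SNAI1 on the horizontal axes, all as log2(CPM + 0.5), with 1 point per library, squares for PM and circles for PE. CDH1 and ESRP1 fall along 1 line from the PM groups down to PE with hairpin B, whereas with hairpin B in PE CDH1 is lowest at ZEB1 levels of 14.4 to 21 CPM that overlap those of the PE controls and at ZEB2 levels of 47.1 to 69.2 CPM that lie above the 33.2 to 40.5 CPM of the PE controls.

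The genes most like CDH1 in pattern were ranked among 11782 coding genes averaging 1 CPM or more, by Pearson r of log2(CPM + 0.5) over the 24 libraries. The 8 highest were LSR (0.975), a tricellular junction protein gene, DMKN (0.972), MYO1D (0.971), HOOK1 (0.968), S100A14 (0.965), GALNT3 (0.962), a glycosyltransferase gene, FRAS1 (0.961), a basement membrane protein gene, and MPZL2 (0.961). LSR averaged 31.3, 38 and 41 CPM in PM with hairpin A, hairpin B and the GFP hairpin, and 7.97, 5.7 and 20.7 CPM in PE. S100A14 averaged 214, 123 and 282 CPM in PM and 14.4, 2.74 and 53.5 CPM in PE. The 4 lowest were SMIM3 (−0.96), IGF2R (−0.957), BCAR1 (−0.956), a focal adhesion adaptor gene, and MCAM (−0.953), an adhesion receptor gene, and no repressor of the 10 genes was ranked since members were left out. MCAM averaged 104, 102 and 77.6 CPM in PM and 274, 304 and 135 CPM in PE with hairpin A, hairpin B and the GFP hairpin. With a pseudocount of 0.1 CPM 6 of the 8 and 3 of the 4 were kept, and with 1 CPM 7 and 4. These r values include the differences between groups. After each group's mean was taken off, r ran from 0.49 (MPZL2) to 0.68 (GALNT3) for the 8 highest. For the 4 lowest it ran from −0.73 (BCAR1) to −0.52 (IGF2R and MCAM).

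The tested neighbours of CDH1 on chromosome 16 did not all go in one direction in PE. TANGO6, which starts 7.99 kb after CDH1, did not pass in PE (22.5, 20.7 and 23.2 CPM with hairpin A, hairpin B and the GFP hairpin, adjusted p = 0.732 and 0.197). CDH3, which ends 3.52 kb before CDH1 and encodes P-cadherin, averaged 22.2, 15.3 and 35.1 CPM in PE and fell with hairpin B (log2 −1.17, SE 0.28, adjusted p = 0.00374) but did not pass with hairpin A (log2 −0.63, adjusted p = 0.132). In PM it averaged 43.3, 56.2 and 37.5 CPM and passed with neither hairpin (adjusted p = 0.647 and 0.117). HAS3, a hyaluronan synthase gene 248 kb after CDH1, fell in PE with both hairpins, to 4.61 and 3.48 CPM with hairpins A and B against 6.81 CPM with the GFP hairpin (log2 −0.58 and −0.98, adjusted p = 0.0446 and 0.000422). ZFP90, a zinc finger gene 161 kb before CDH1, rose in PE with hairpin B (log2 0.50, SE 0.12, adjusted p = 0.00102) and did not pass with hairpin A (log2 −0.03, adjusted p = 0.913). SMPD3, also before CDH1, was at most 0.263 CPM in any group and passed in no comparison with the GFP hairpin. In PE it averaged 0.177 CPM with hairpin A and 0.0198 CPM with hairpin B, against 0.0277 CPM with the GFP hairpin (log2 2.42, SE 1.61, and −0.74, SE 1.72).

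Gene lists around the 10 genes were chosen with earlier results of these data known and are described by counts. A gene counts here when it passed with both CHD1 hairpins in one direction, as 6.75% of all genes tested did upwards and 5.58% downwards in PE, and 6.46% and 6.89% in PM. Of 29 tested epithelial genes known as ZEB or SNAI targets (32 listed), 0 were higher and 3 lower in PM, and 1 was higher and 16 lower in PE. Their median log2 change, taken as the mean of both hairpins, was −0.16 in PM and −0.76 in PE, beside −0.01 and 0 over all genes tested. LAD1 averaged 0.634, 0.123 and 4.73 CPM in PE with hairpin A, hairpin B and the GFP hairpin, and 57, 34.3 and 50.2 CPM in PM. CRB3 averaged 0.394, 0.0483 and 0.956 CPM in PE and 3.21, 2.21 and 3.18 CPM in PM. PRSS8, a membrane serine protease gene, was lower in PE with both hairpins (log2 −1.08 and −3.29, larger adjusted p = 0.0103). KRT8, a keratin of simple epithelia, was the gene that was higher in PE (386 CPM with hairpin A, 369 CPM with hairpin B and 237 CPM with the GFP hairpin, mean log2 change 0.67). In PM against PE with the GFP hairpin a gene counts when it passed that comparison. There 20 of the 29 were higher and 2 lower, beside 14.1% and 11.4% of all genes tested. The median was 0.82 beside 0.02 over all genes. Those higher included LAD1 (log2 3.63), S100A14 (log2 2.46), AP1M2 (log2 2.32), an epithelial sorting adaptor gene, and EPCAM (log2 2.23). The comparison shares the PE control libraries with those that led to the choice of the 10 genes, and its counts are a description.

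Partners of E-cadherin at adherens junctions went in both directions. Of 14 genes, 1 was higher and 2 lower in PM, and 1 was higher and 2 lower in PE, with medians of −0.14 and 0.19. In PE, JUP (plakoglobin, log2 −0.73 and −0.53) and NECTIN1 were lower and LIMA1, a linker of catenins to actin, higher. Chosen after their values were seen, as the direct binders of E-cadherin, the catenin genes CTNNA1, CTNNB1 and CTNND1 had mean log2 changes of 0.21, 0.17 and −0.06 in PE and did not pass with both hairpins in either line in the fit without the block. In PM NECTIN4 was higher (log2 1.81 and 2.30) and PLEKHA7 lower (log2 −0.96 and −0.73). The count of higher genes in PE was 5 with the replicate block. The PE counts also moved by over 1.5 times on leaving out single libraries: the higher count was 3 without control replicate 3 and 2 without control replicate 4. The lower count was 0 without control replicate 3, and 1 without hairpin A replicate 2 or 3, hairpin B replicate 2 or control replicate 2 or 4.

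Of 14 tested epithelial transcription factors (15 listed), 1 was higher and 2 lower in PM, and none was higher and 3 lower in PE, with medians of −0.18 and −0.41. Those lower in PE included ELF3 (log2 −2.45 and −3.83) and KLF5 (log2 −0.95 and −1.48). OVOL2, the paralogue of OVOL1 that represses ZEB1, had 0.332, 0.103 and 0.882 CPM in PE with hairpin A, hairpin B and the GFP hairpin and 1.87, 1.49 and 2.4 CPM in PM, and passed with both hairpins in neither line. It was picked out for its kinship after its values were seen. In PM GRHL3, a paralogue of GRHL2, was higher (log2 1.80 and 2.24) and KLF4 and KLF5 lower.

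Other EMT transcription factors went in both directions. Of 18 tested (21 listed), 1 was higher and 3 lower in PM, and 2 were higher and 4 lower in PE, with medians of 0.06 and −0.17. HMGA2, an architectural chromatin protein gene linked to EMT, was lower in both lines (log2 −1.27 and −1.98 in PM, −1.04 and −2.65 in PE), as was ID1, and TWIST2 was higher in PE (log2 0.35 and 0.54). TCF3 was the 1 gene higher in PM (log2 0.68 and 0.26) and was higher in PE too (mean log2 change 0.38). The PE count of higher genes was 0 with each comparison fitted on its 2 groups alone, 3 with the replicate block, 1 with limma-voom or library sizes alone, 0 without control replicate 1 and 1 without hairpin A replicate 1 or 4, hairpin B replicate 2 or 4 or control replicate 2 or 3. Of 22 mesenchymal genes 5 were higher and 1 lower in PM, and 6 were higher and 1 lower in PE, with medians of 0.12 and 0.50. MMP2, a matrix protease gene, was higher in both lines (log2 1.31 and 2.59 in PM, 1.79 and 3.51 in PE). S100A4 was also higher in both lines (mean log2 change 0.77 in PM and 1.43 in PE). CDH11, a mesenchymal cadherin gene, was lower in PE (log2 −1.17 and −4.91). That CDH11 call was lost without hairpin A replicate 2, 3 or 4 or control replicate 1, 2 or 3, and the 1 lower gene in PM, CDH2, without hairpin B replicate 3.

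A further pair of lists bears on how ZEB and SNAI proteins act and are induced. Of 21 corepressor and silencing genes 3 were higher and 6 lower in PM, and 3 were higher and 3 lower in PE. RCOR1, a REST corepressor, was higher (log2 0.56 and 0.68 in PM, 0.64 and 0.60 in PE), and DNMT1, the maintenance DNA methyltransferase, and SUV39H1 were lower in both lines. CTBP1 was also higher in both lines (log2 0.51 and 0.19 in PE, mean log2 change 0.44 in PM). The PE count of higher genes was 1 without control replicate 1. A list of 16 genes of TGF-beta signalling, an inducer of SNAI and ZEB genes, holds both activators and inhibitors of the pathway. Of these, 1 was higher and 4 lower in PM, and 1 was higher and 4 lower in PE. Those lower included inhibitors: SKI, SKIL and SMURF1 in PM, and SKIL and SMURF2 in PE. The counts therefore give no direction of signalling. The receptor gene TGFBR1 (log2 −0.73 and −0.50 in PM, −0.81 and −0.57 in PE) and SKIL were lower in both lines. The ligand gene TGFB1 was the 1 higher gene in both lines (mean log2 change 0.31 in PM, log2 0.27 and 0.42 in PE). Its call in PE was lost without hairpin A replicate 4. Of 11 other splicing regulators tested, beside the ESRP genes, 0 were higher and 2 lower in PM (MBNL1 and RBFOX2) and none passed with both hairpins in PE.

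**Figure D4:**
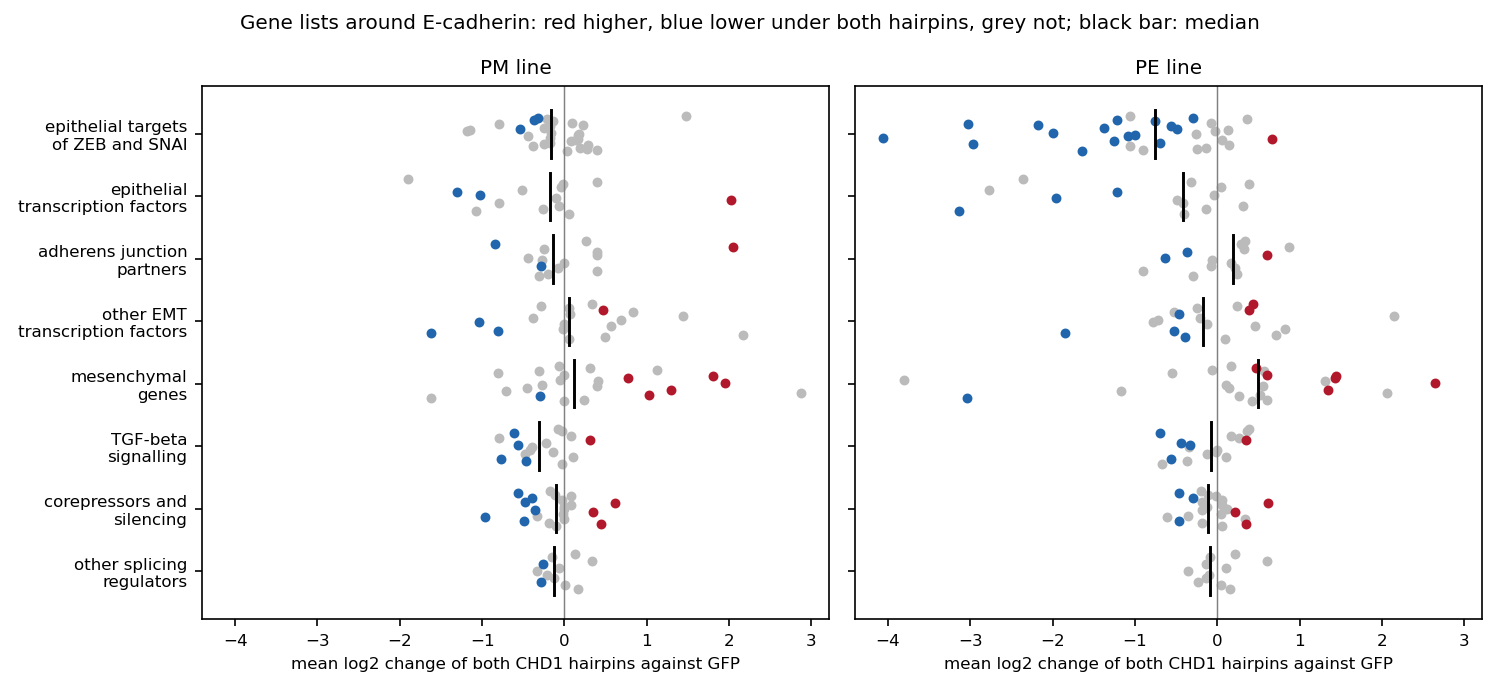
Mean log2 change of both CHD1 hairpins against the GFP hairpin for each tested gene of 8 lists, in PM on the left and PE on the right. Red and blue points passed with both hairpins upwards or downwards, grey points did not, and the black bar is the list's median; among epithelial targets of ZEB and SNAI, 16 of 29 genes are blue in PE and 3 in PM.

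Of the microRNAs shown at the start, miR-205, miR-200c and miR-141 had a host transcript examined, and miR-200b, miR-200a and miR-429 had none. The genes MIR200B, MIR200A and MIR429 themselves had no count in any library. The mature microRNAs are not measured by poly(A) RNA. MIR205HG, which hosts miR-205, fell in PE to 6.82 ± 1.82 CPM with hairpin A and 0.041 ± 0.0646 CPM with hairpin B, against 20.1 ± 7.56 CPM with the GFP hairpin (SD, n = 4 each). The hairpin B group held 5 counts beside 2286 in the control group, a ratio of 0.00145 with a 95% counting interval of 0.00047 to 0.00339. In PM it was near the floor in every group, at 0.066, 0.102 and 0.0324 CPM with hairpin A, hairpin B and the GFP hairpin. The ratio of PM to PE with the GFP hairpin was 0.00176 (interval 0.000646 to 0.00384).

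MIR200CHG, which hosts miR-200c and miR-141, was low throughout. It had 1 count in PE with hairpin A and 2 with hairpin B, beside 25 with the GFP hairpin, which gives ratios of 0.0326 (interval 0.000793 to 0.199) and 0.053 (interval 0.00608 to 0.212). Both passed the edgeR test (larger adjusted p = 0.00276). The PE control libraries varied widely, at 0.468 ± 0.502 CPM (SD, n = 4) and from 0.0609 to 1.11 CPM. The highest PE library held 0.0301 CPM with hairpin A and 0.0527 CPM with hairpin B, close to the lowest control. In PM it averaged 0.343, 0.491 and 0.506 CPM with hairpin A, hairpin B and the GFP hairpin. These intervals cover counting error only.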

How the data were processed

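Poly(A) RNA was measured in 24 libraries of 6 groups. The deposited table holds raw read counts per gene, which the authors made with Trim Galore 0.4.0, HISAT2 2.2.1 and featureCounts on GRCh38, per the submitters' processing notes. Which annotation release and strand setting were used, and how multiply mapped reads were handled, is not given in the sources used. Of 59251 genes, 17236 had no count, and 20820 passed edgeR's filter on low counts over the 6 groups. Counts were scaled by TMM and tested with edgeR 4.0.16 (R 4.3.3), in a quasi-likelihood fit of all 6 groups with 18 residual degrees of freedom. P-values were adjusted by Benjamini-Hochberg over all genes tested, with a threshold of 0.05. Standard errors are the fold change over the root of the F statistic. DESeq2 1.42.0 and limma 3.58.1 served as alternatives, and the fit was tested on simulated data. The members and gene lists were chosen with earlier results of these data known. Named list genes are up to 4 per list and line with the largest mean change among those past the threshold with both hairpins, and exceptions are marked. Libraries of the same replicate number correlated in deviation from group means, at r 0.126 to 0.436 for 5 of the 7 comparisons. The lowest r was 0.095 for hairpin B in PE and 0.085 for PM against PE. The edgeR tests and the permutation test did not pair libraries by replicate number. A fit with replicate number as a block served as an alternative. Some list genes are not reported here.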

Additional observations from a re-analysis of the deposited data

Results flagged for a closer look

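ZEB1 in PM with hairpin A had 8.5 CPM in replicate 4, far from the 14.6 to 15.6 CPM of the other 3 libraries (gap over range 0.86). It was 1 of 48 groups tested for such a sample, and chance gives about 1 in 20. The same library had 19514 genes with a count and a mitochondrial share of 7.05%, and the part of these in the ZEB1 value was not tested.

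ESRP2 moved in opposite directions in the 2 lines with hairpin A, with all 4 libraries above the controls in PM and all 4 below them in PE, and the change in PM minus that in PE was 1.18 (SE 0.13, log2). ZEB2 also moved in opposite directions with hairpin A, with all libraries below the controls in PM and above them in PE, at a difference of −1.25 (SE 0.24, log2). Neither difference was tested.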

How the results depend on the processing

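Of 56 gene comparisons, 36 kept their direction and side of the threshold under all alternatives run (DESeq2's size factors and Wald test, library sizes alone, other filters, limma-voom, fits of 2 groups, the replicate block and each library left out), and 20 did not; the cause was not tested. With each library left out, the number of the 8 genes called was 6 to 8 for hairpin A and 4 to 5 for hairpin B in PE, 4 and 2 in PM, 6 for PM against PE, and for hairpin B against A 5 in PE and 3 to 4 in PM. Without PE control replicate 1 and PM hairpin B replicate 3 together, chosen after seeing the data, the last count was 3. With the replicate block these counts were 8, 5, 4, 2, 6, 5 and 5, as without it, and adherens junction partners higher in PE with both hairpins numbered 5 against 1. Changes that did not pass and changed sign were SNAI1 in PM with hairpin B (0.01 with library sizes alone, 0 at 5 CPM or more, 0.02 without those libraries) and SNAI2 there (0 with limma-voom). With single libraries left out, log2 ranges spanned 0 for SNAI2 in PE with hairpin B (0 to 0.24), for CDH1 (−0.03 to 0.09), ZEB2 (−0.02 to 0.24), SNAI1 (−0.16 to 0.07) and SNAI2 (−0.06 to 0.12) in PM with hairpin B, for SNAI1 (−0.13 to 0) and SNAI2 (−0.01 to 0.19) in PM against PE, for ZEB2 between hairpins in PE (−0.07 to 0.13), and for ESRP1 (−0.01 to 0.11) and SNAI1 (−0.06 to 0.19) between hairpins in PM. CDH1 between hairpins B and A in PM missed the threshold (log2 0.55, adjusted p = 0.228) but passed with limma-voom (0.00277) and in the 2-group fit (0.000914). Depth limits CDH1 and ESRP1 in PE with hairpin B, at 51 and 28 counts.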
